A study of Mus musculus with 2 samples.

Results

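Gm25301 is an annotated microRNA gene of mouse chromosome 18 whose row in the heart tables was read entirely on the opposite strand. It is 1 of 1973 microRNA rows in each of the 2 tables. It was found by its stable Ensembl identifier (ENSMUSG00000093026.1) in GENCODE annotation of mm10, and it was singled out because of its opposite-strand count, so its level, its rank and its strand are given as descriptions and not as tests. The row covers chromosome 18, 61397813 to 61397925, on the plus strand. On the minus strand within it lies Mir378a (chromosome 18, 61397835 to 61397900), a microRNA that has no row of its own in the tables.

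MicroRNA-seq, the sequencing of RNA below 30 bases per the labels, was done on hearts of B6NCrl mouse embryos at embryonic day 10.5. Replicate 1 pooled hearts of 69 embryos and replicate 2 hearts of 51 embryos, of both sexes and healthy, with no treatment or engineered allele named. There is 1 group, so every comparison is between strands and genes within a library or between the 2 pools. In such bulk samples, fewer cells of a type and less RNA per cell cannot be told apart.

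MicroRNAs are cut from hairpin precursors, and one strand of the hairpin stem is loaded into Argonaute to repress messenger RNAs that pair with its seed. Mir378a is hosted by Ppargc1b, the gene of the transcriptional coactivator PGC-1beta, which drives mitochondrial and fatty acid oxidation genes. The microRNA is known from energy metabolism, fat cells, skeletal muscle and cardiac muscle cells. Reads from a host intron and its microRNA share a strand, and here that strand is the one opposite to Gm25301.

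The 66 bases of Mir378a fall wholly inside the 113 bases of Gm25301, with 22 bases of Gm25301 before and 25 bases after it in genome order. Both lie in intron 1 of Ppargc1b (chromosome 18, 61298136 to 61400431, minus strand). In the protein-coding transcript Ppargc1b-201, of 13 exons, this intron has 17766 bases, and Mir378a begins 2389 bases after exon 1. It is the first intron also in the other 2 transcripts that span the site. The tables give counts per row and not per base, so they do not show which bases of the row, or which arm of the hairpin, the reads covered.

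**Figure D1:**
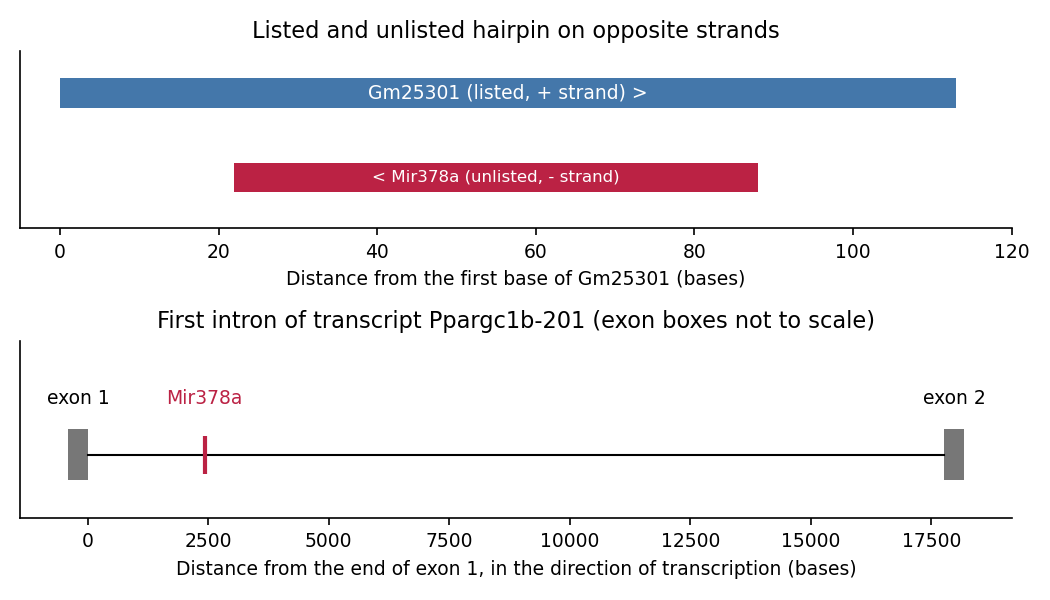
Positions of the 2 hairpins, in bases from the first base of Gm25301 (upper panel), and of Mir378a in the first intron of transcript Ppargc1b-201, in bases from the end of exon 1 (lower panel). The 66 bases of Mir378a sit wholly within Gm25301 on the other strand, 2389 bases into an intron of 17766 bases.

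Several other listed rows stood in the same position, opposite a microRNA with no row. The mature sequences of the 4 such microRNAs with the highest levels after Mir378a are shown because theirs is the strand on which the reads of those rows fell. They come from RefSeq (GRCm38.p6, the mm10 assembly), where all 4 matched by symbol, and run 5′ to 3′ with the seed, bases 2 to 8, in capitals.
mmu-miR-409-5p (chromosome 12, opposite Gm24321): aGGUUACCcgagcaacuuugcau
mmu-miR-409-3p: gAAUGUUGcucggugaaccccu
mmu-miR-376a-5p (chromosome 12, opposite Gm25252): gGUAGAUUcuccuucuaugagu
mmu-miR-376a-3p: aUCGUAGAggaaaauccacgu
mmu-miR-191-5p (chromosome 9, opposite Gm24083): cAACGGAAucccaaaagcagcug
mmu-miR-191-3p: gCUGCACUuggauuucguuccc
mmu-miR-142a-5p (chromosome 11, opposite Mir142b): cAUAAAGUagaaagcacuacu
mmu-miR-142a-3p: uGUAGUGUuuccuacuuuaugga

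The strand opposite to Gm25301 held 68898 reads in replicate 1 and 142990 reads in replicate 2. The strand of Gm25301 itself held 0 reads in both. All counted reads of the row were thus on the strand of Mir378a, with exact 95% lower limits of 99.99% and 99.997% of the row's reads. A count of 0 allows up to 3 reads, or 0.688 CPM for Gm25301 on its own strand in replicate 1 and 0.598 CPM there in replicate 2. CPM here is a count divided by all gene counts over both strands of its library, 4357841 and 5018904, times 1000000.

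The opposite-strand level was 15810.1 CPM in replicate 1 (exact 95% Poisson interval 15692 to 15929) and 28490.3 CPM in replicate 2 (28343 to 28638), with a mean of 22150.2 ± 8966 CPM (SD, n = 2). The reads at this row made up 1.58% and 2.85% of all gene counts. The level ranked 13 in replicate 1 and 9 in replicate 2 among the 1973 rows. The median row with any count had 5.74 CPM in replicate 1 and 4.58 CPM in replicate 2. Mir335, an intronic microRNA of the imprinted gene Mest and the highest row of both libraries, was 8.42-fold (replicate 1) and 5.47-fold (replicate 2) above the Gm25301 row. The intervals describe the counting error of reads alone. Amplified reads that carry no molecular identifier can repeat one molecule, so the intervals may be too narrow for molecules.

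The order around this level was not resolved by the 2 libraries. By mean CPM the row stood at rank 11. Just above it were Mir99a with 34304 ± 684 CPM, Mir208b with 33889 ± 19502, Mir26b with 29195 ± 11.8, Mir351 with 27431 ± 12654 and Mir30e with 25672 ± 805 (SD, n = 2). Just below it were Mir21a with 17018 ± 2012 CPM, Mir130a with 16620.2 ± 1340, Mir99b with 16183 ± 1108, Mir23a with 14698 ± 3740 and Mir208a with 14449.7 ± 3091. The range of the 2 libraries overlapped that of the Gm25301 row for 8 of these 10 neighbours. Mir99a and Mir26b, whose libraries lay close together, were above it in both. The Mir23a hairpin shares at least 20 bases with another microRNA, so Mir23a may be undercounted.

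**Figure D2:**
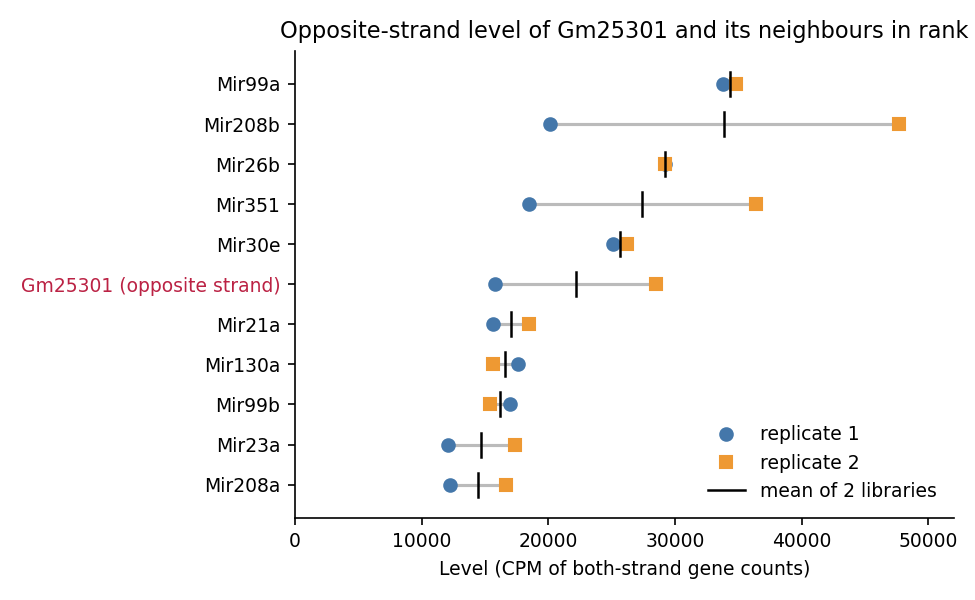
Level in CPM of both-strand gene counts (linear axis) for the Gm25301 row and the 5 rows ranked on each side of it by mean; circles are replicate 1, squares replicate 2, and the black tick is their mean. The row spans 15810.1 to 28490.3 CPM, which covers or meets the span of 8 of its 10 neighbours.

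Most rows were read on their own strand. Of 312 rows with at least 100 reads over both strands and libraries, 10 (3.21%) had more reads on the opposite strand than on their own. Of the remaining 302 rows, 270 had no opposite-strand read. The most mixed of these was Mir3074-1, named after its value was seen, with 30.9% of its reads on the opposite strand. All 10 rows read mainly on the opposite strand have an annotated microRNA on that strand, and none of those 10 microRNAs is listed in the tables. At any read count, 32 rows, these 10 among them, lie opposite an unlisted microRNA. Of the 32, 22 had any opposite-strand read. Together the 10 rows held 99.8% of all opposite-strand gene counts in each library.

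Gm25301 had the highest opposite-strand count in both libraries. It supplied 35.5% of all opposite-strand gene counts in replicate 1 (of 194185) and 62.2% in replicate 2 (of 229836). Next was the row of Gm24321, opposite Mir409 of the imprinted Dlk1-Dio3 region, with 62447 reads in replicate 1 and 35418 in replicate 2. The Gm25301 row exceeded it 1.10-fold in replicate 1 and 4.04-fold in replicate 2, so their gap differed widely between the pools.

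The other rows of this kind were at 3440 CPM or less in both libraries. Gm25252, opposite Mir376a of the same imprinted region, had 2512 ± 1312 CPM on the opposite strand (SD, n = 2). Gm24083, opposite Mir191, had 2071 ± 152 CPM. Mir142b, opposite the blood cell microRNA Mir142, had 2038 ± 586 CPM, and Gm25927, opposite Mirlet7e of the let-7 family, had 1970 ± 238 CPM. Mir299b opposite Mir299a, Gm25750 opposite Mir380 and Mir497b opposite Mir497 had means of 1813, 1379 and 430.1 CPM, and Mir1b opposite the heart and muscle microRNA Mir1a-2 had 21.2 CPM. The hairpin of Mir1a-1, the other Mir1a gene, shares at least 20 bases with another microRNA. Reads that matched several places were entered for no gene, so 21.2 CPM may undercount the mature microRNA of Mir1a-2. In 7 of the 10 rows, Gm25301 among them, no read of either library lay on the row's own strand. Mir1b was the row with the lowest opposite-strand share, 81.9% of 248 reads (exact 95% interval 76.5 to 86.4).

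**Figure D3:**
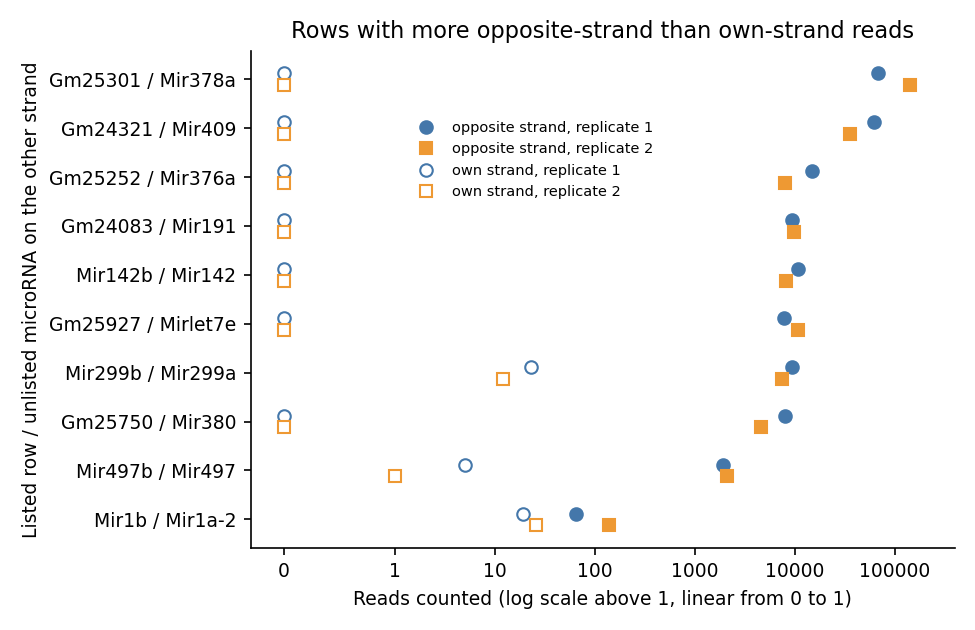
Reads counted on the opposite strand (filled) and on the own strand (open) of the 10 rows read mainly on the opposite strand, each named with the unlisted microRNA there; circles are replicate 1 and squares replicate 2, on an axis that is logarithmic above 1 and linear from 0 to 1. The Gm25301 row has the highest opposite-strand counts, 68898 and 142990, and 0 on its own strand.

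A count limited to the own strand places these reads outside all listed rows, which is what lying in no gene means here. The reads counted as lying in no gene were 901909 in replicate 1 and 814766 in replicate 2 for the own-strand column, and 707724 and 584930 for the column over both strands. The difference equals the opposite-strand gene counts, 194185 and 229836. The reads opposite Gm25301 alone were 7.64% of the own-strand no-gene reads in replicate 1 and 17.5% in replicate 2. An own-strand count therefore shows this locus as 0 in both heart pools, while the count over both strands shows it among the 13 highest rows.

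The rows of the other miR-378 genes held far fewer reads than the Gm25301 row. Fragments of the Ppargc1b intron lie on the strand of Mir378a too, and the tables do not separate them from Mir378a, so the proportions below are between rows and not between microRNAs. Mir378d (ENSMUSG00000098756.1; chromosome 10, 126710282 to 126710391) had 174 own-strand reads in replicate 1 and 311 in replicate 2, or 39.9 and 62.0 CPM. Mir378c (ENSMUSG00000099036.1; chromosome 14, 46954830 to 46954928) had 89 and 120 reads, or 20.4 and 23.9 CPM. Mir378b (ENSMUSG00000092985.1; chromosome 11, 88352773 to 88352864) had 15 and 18 reads, or 3.44 and 3.59 CPM. None of the 3 had an opposite-strand read.

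The reads opposite Gm25301 were 396 times those of Mir378d in replicate 1 (exact 95% interval 341 to 462) and 460 times in replicate 2 (411 to 516). Of all reads at these 4 loci, 99.6% in replicate 1 (99.55 to 99.64) and 99.7% in replicate 2 (99.66 to 99.72) lay opposite Gm25301. The Mir378a hairpin shares a stretch of 20 bases with Mir378c, 19 with Mir378b and 15 with Mir378d. Reads that matched several places, 23.3% and 23.5% of each table, were entered for no gene. The microRNA reads of all 4 loci may therefore be undercounted, and their proportions rest on the reads that could be placed at 1 locus. The mature sequences that RefSeq gives for Mir378b, Mir378c and Mir378d differ in their seeds, with 3 distinct sets of bases 2 to 8 as annotated.

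Replicate 2 had the higher level of reads opposite Gm25301. The libraries were compared with an exact two-sided binomial test. Library sizes were adjusted by TMM, a trimmed mean of the gene ratios, and the test ran over each strand of every row as a separate feature. Of 441 features with at least 10 counts in a library, 138 (31.3%) were higher in replicate 2, 134 (30.4%) were lower and the 169 others did not pass. The Gm25301 row was 2.22-fold higher on its opposite strand, a log2 ratio of 1.15 (95% exact interval 1.14 to 1.17), with a Benjamini-Hochberg adjusted p of this exact test too small for the software to write as a number other than 0. The row was chosen with the levels of both libraries known, and the test compares these 2 libraries, with 1 library on each side, and covers counting error only.

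The size of this ratio was above the usual spread between the pools and within its range. The median absolute log2 ratio of the other 440 features was 0.48. A ratio at least as high was seen in 31 of them (7.05%), and one at least as far from 0 in either direction in 68 (15.5%). Among the 204 others with at least 1000 counts, a limit set after the data were seen, 7 (3.43%) were at least as high. Scaling by total counts instead lowers log2 ratios by 0.30, and the ratio was then 0.85 and still passed, against 67 features higher (15.2%) and 204 lower (46.3%). At that scaling 31 of the others (7.05%) were at least as high, and 134 (30.5%) at least as far from 0 in either direction.

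**Figure D4:**
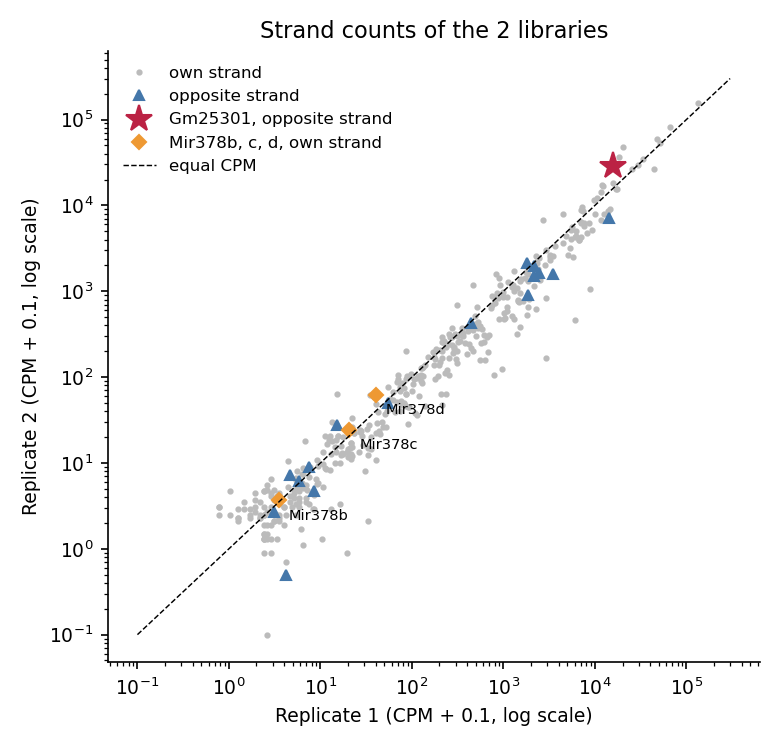
CPM of replicate 1 (x) against replicate 2 (y), each plus 0.1 on log axes, for the 441 tested strand features; grey points are own-strand counts, blue triangles opposite-strand counts, orange diamonds the other miR-378 genes and the red star the opposite strand of Gm25301. The star lies above the dashed line of equal CPM, at 15810.1 and 28490.3 CPM.

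The other opposite-strand rows did not share one direction. Of the 9 others among the 10 rows, 4 were higher in replicate 2 and 5 were lower, against 31.3% and 30.4% of all features. With total counts as the scaling 2 were higher, 6 lower and 1 did not pass, against 15.2% of all features higher and 46.3% lower. The reads opposite Mir142b and Gm24321 had log2 ratios of -0.29 and -0.72, those opposite Gm25927 had 0.55, and those opposite Gm24083 had 0.15, which turned to -0.15 with total counts. All opposite-strand counts other than those of Gm25301 summed to 28749.8 CPM (2.87% of gene counts) in replicate 1 and 17304 CPM (1.73%) in replicate 2. With Gm25301 included, opposite-strand reads made up nearly the same share of gene counts in both libraries, 4.46% and 4.58%.

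Of the miR-378 genes with a row, 2 of 3 were higher in replicate 2 and 0 were lower, against 31.3% and 30.4% of all features. With total counts 1 of 3 was higher, against 15.2%. Their median log2 ratio was 0.53, against 0.02 over all 441 features. Mir378d was higher at 0.93 (95% exact interval 0.66 to 1.21; binomial adjusted p = 7.1e-12). Mir378c was higher at 0.53 (0.12 to 0.94; adjusted p = 0.0147 by the same exact test), and did not pass with total counts, at 0.23. Mir378b, at 0.35 (-0.71 to 1.45), did not pass. The interval of Mir378d meets that of the Gm25301 row, and that of Mir378b, on 33 reads, is too wide to place it.

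The microRNAs in introns of myosin heavy chain genes, which mark heart muscle cells, were, like the Gm25301 row, higher in replicate 2. Mir208a and Mir208b were also near it in level, and Mir499 was far lower. Mir208b of Myh7 had 20099 CPM in replicate 1 and 47679 in replicate 2, a log2 ratio of 1.55 (1.54 to 1.56). Mir208a of Myh6 had 12264 and 16635 CPM, at 0.74 (0.73 to 0.76). Mir499 of Myh7b had 829 and 1571 CPM, at 1.22 (1.17 to 1.28). All 3 passed, against 31.3% of all features higher, and the Gm25301 row, at 1.15, lay between Mir208a and Mir499.

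Reads opposite Gm25301 exceeded those of Mir208a 1.29-fold in replicate 1 (exact 95% interval 1.27 to 1.30) and 1.71-fold in replicate 2 (1.70 to 1.73). They were 0.787 times those of Mir208b in replicate 1 and 0.598 times in replicate 2. Against Mir499 the ratio was 19.1 (18.4 to 19.7) and 18.1 (17.7 to 18.6), the closest of the 3 to a constant proportion. These ratios within a library do not depend on the scaling. A near-constant proportion was not particular to heart muscle genes. Mirlet7g, with a log2 ratio of 1.13, and Mir30c-2, with 1.16, were nearer than Mir499 to the 1.15 of the Gm25301 row.

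MicroRNAs tied to energy metabolism were lower than the Gm25301 row in both libraries, and as a list they went both ways. Of 12 listed names 11 have a row, 10 were tested, 6 were higher in replicate 2, 2 were lower and 2 did not pass, with a median log2 ratio of 0.43. Over all features 31.3% were higher and 30.4% lower. With total counts the median was 0.13, with 3 higher and 3 lower, against 15.2% and 46.3% of all features. Their summed level was 4069 CPM in replicate 1 and 4023 CPM in replicate 2, so the Gm25301 row alone exceeded the whole list 3.89-fold and 7.08-fold. Mir107, in an intron of the pantothenate kinase gene Pank1, had 918 and 1193 CPM and was higher at 0.68. Mir210, known from low oxygen, had 757 and 885 CPM and was higher at 0.53. Mir494 had 889 and 469 CPM and was lower at -0.62. Mir33, in an intron of the sterol regulator Srebf2, had 43.3 ± 9.45 CPM (SD, n = 2) and did not pass at -0.15. With total counts Mir33 was lower at -0.45. The hairpins of Mir103-1, Mir103-2, Mir107, Mir27a, Mir27b, Mir133a-1 and Mir133a-2 each share at least 20 bases with another microRNA. Reads of shared bases may match several places, so the list's sum is best read as a lower limit.

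**Figure D5:**
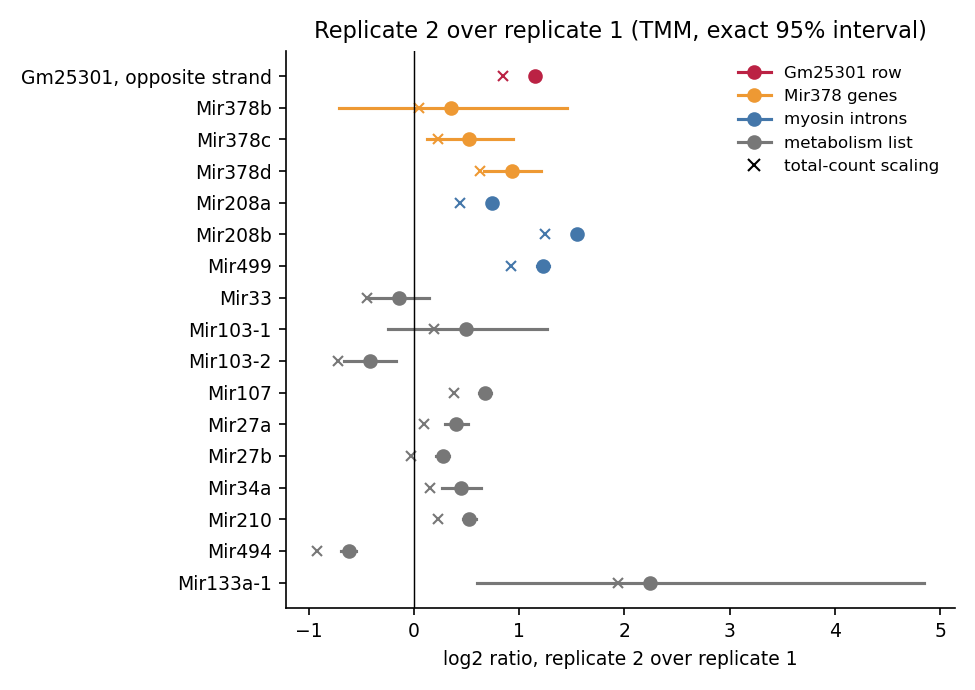
Log2 ratio of replicate 2 over replicate 1 (x) for the opposite strand of Gm25301 and own-strand counts of the other genes; dots are TMM-scaled ratios with bars for the exact 95% interval, crosses are ratios scaled by total counts, and colours mark the Mir378 genes, the myosin intron genes and the metabolism list. The Gm25301 row, at 1.15, lies between Mir208a at 0.74 and Mir499 at 1.22.

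Markers of several cell types also differed between the pools, and their part in the result was not tested. The heart muscle list (Mir208a, Mir208b, Mir499, Mir1a-1 and Mir133a-1) summed to 33197 CPM in replicate 1 and 65892 in replicate 2, with 4 of 5 members higher and 0 lower, against 31.3% and 30.4% of all features. One of the 4, Mir133a-1, rests on 3 and 15 reads. The hairpins of Mir133a-1 and Mir1a-1 each share at least 20 bases with another microRNA, so both may be undercounted. Endothelial Mir126a had 50931 and 52962 CPM, the smooth muscle genes Mir143 and Mir145a summed to 66637 and 82083 CPM, and the 3 red blood cell genes to 1109 and 1634 CPM. Of these 3, Mir451a had 905 and 1440 CPM, Mir486 had 89.0 and 96.4, and Mir144, which did not pass, had 115 and 98.2. In the opposite direction to the heart muscle list, the 5 epithelial genes, all lower against 30.4% of all features, summed to 4869 and 1271 CPM. With total counts all 5 were lower too, against 46.3%. The liver gene Mir122 was also lower, with 2941 and 167 CPM. The leukocyte genes Mir223 and Mir155, without Mir142, which has no row, summed to 434 and 317 CPM. They went different ways: Mir223 was lower at -0.72, and Mir155 was higher at 0.30 but did not pass with total counts. The skeletal muscle genes Mir206 and Mir133b summed to 16.3 and 11.4 CPM. Of the 5 neural genes with a row, Mir9-2, Mir124a-1, Mir124a-2 and Mir124a-3 had 0 reads and the list summed to 1.61 and 1.39 CPM. All 5 neural genes, Mir133b and the red blood cell gene Mir486 have hairpins that share at least 20 bases with another microRNA. Reads that matched several places were entered for no gene, so these counts may be too low. The counts of 0 do not show that these neural microRNAs were absent.

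The features most like the Gm25301 row over the 2 libraries were chosen by the distance between log2(CPM + 1) values. The nearest was Mir351 of the X-linked Mir322-Mir503 cluster, with 18483 and 36378 CPM (distance 0.42) and a log2 ratio of 1.28. It was followed by Mir21a with 15596 and 18441 CPM (0.63), Mir30e with 25103 and 26242 CPM (0.68), Mir23a with 12054 and 17343 CPM (0.82) and Mir208b (0.82). The other 5 of the 10 nearest were Mir208a, Mir130a, Mir26b, Mir99b and Mir30a, at distances of 0.86 to 1.10. All 10 were higher in replicate 2 under TMM, against 31.3% of all features. With total counts 7 were higher, Mir130a and Mir99b were lower, and Mir26b did not pass, against 15.2% of all features higher and 46.3% lower. The 10 were chosen by these same 2 levels, so their direction is no separate result. With 2 libraries this likeness rests on 2 values per gene and mostly reflects a similar level.

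On chromosome 18, 6 other rows lie within 1 Mb of Gm25301. The nearest are Mir145a (ENSMUSG00000065592.1; 61647825 to 61647894) and Mir143 (ENSMUSG00000065445.2; 61649196 to 61649258), smooth muscle microRNAs on the minus strand, 249.9 and 251.3 kb away. Mir143 had 286727 and 407125 reads, 4.16 and 2.85 times those opposite Gm25301, and was higher in replicate 2 at 0.60 (95% exact interval 0.60 to 0.61). Mir145a had 3667 and 4842 reads and was higher at 0.50 (0.44 to 0.56). The intervals of both lie below that of the Gm25301 row. Mir7220 had 1 and 3 reads, and Mir5107, Mir6982 and Mir6983 had 0 in both libraries. Reads of this stretch that lie in no listed row are not seen in the tables.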

How the data were processed

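The authors deposited 1 table of raw read counts per library. Per the file headers and README files, each came from its own alignment to mm10 with GENCODE M4 genes. Aligner and settings were not given in the sources used here. In all, the tables held 10042860 and 10996991 reads. Rows that name no gene (56.6% and 54.4% of reads: unmapped, several places, no gene) entered neither library sizes nor tests. Counts over both strands equalled own plus opposite strand in all 1973 rows.

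Symbols and positions came from GENCODE M21 on the same assembly (1894 of 1973 identifiers matched). Hairpins sharing a stretch of at least 20 bases with another annotated microRNA were marked, which does not mean that the whole hairpins are alike. CPM used both-strand gene counts. Libraries were compared by an exact binomial test (scipy 1.17.1) with TMM sizes (edgeR 4.0.16), a prior count of 0.5 and Benjamini-Hochberg adjustment at 0.05. The test was also run on simulated counts that held counting error only. That run had no spread between pools and cannot show how the test behaves under such spread. No edgeR or DESeq2 test was possible with 1 group; DESeq2 1.42.0 gave size factors only. Nothing in the labels beyond separate pools separates biological from technical spread, so p-values describe these libraries.

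Named genes were the row, the members of fixed lists, the 10 features most alike, 5 rows on each side in rank, the 10 rows with more opposite-strand than own-strand reads and rows within 1 Mb. The row and the lists were chosen with earlier results of these data known. Alternatives were other denominators, rankings, scalings, filters and prior counts, and each library alone.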

Additional observations from a re-analysis of the deposited data

How the results depend on the processing

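The opposite-strand level of Gm25301 was 9932 CPM when all reads of the tables were the denominator, in place of 22150.2 CPM, and 23203 CPM over own-strand counts. Each library alone gave 15810.1 to 28490.3 CPM. The mean rank of 11 was the same against own-strand counts, all strand features and rows without a stretch of at least 20 bases shared with another microRNA. It was 1 among opposite-strand counts. The sharing mark of this row was taken from the Gm25301 hairpin, while Mir378a shares 20 bases with Mir378c. Each library alone gave ranks of 9 to 13. The row's higher level in replicate 2 kept its call and direction under all 7 alternatives. With total counts, 67 features were higher and 204 lower, and the ratios of Mir27b (-0.029), the reads opposite Gm24083 (-0.15) and Mir497b (-0.057), Mir130a (-0.16) and Mir99b (-0.14) turned negative, as did Mir144, which did not pass at 0.08 and was lower at -0.22. Mir33, which did not pass at -0.15, was lower at -0.45 with total counts. Of 343 comparisons of 49 other named features with an alternative, 329 kept their direction and call. Rows read mainly on the opposite strand numbered 9 to 11 at other read limits and 9 to 10 in single libraries. No paired analysis was possible because the labels give 1 group. Without the Gm25301 row, a setting added after seeing the data, opposite-strand CPM in replicate 2 was 0.602 times that in replicate 1, against 1.03 with it. Depth limits Mir378b, on 33 reads, and the absence of reads on the own strand of Gm25301 is known only to 3 reads.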
